A study of Mus musculus with 6 samples.

Results

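The cell cycle and DNA replication genes described here are 53 genes named by symbol, and all 53 were found among the 15944 genes of the deposited table of normalized counts. Their levels were read in 6 bulk RNA-seq libraries of regulatory T cells (Tregs, the Foxp3-expressing subset of CD4+ T cells) from the spleens of C57BL/6 mice. In 3 libraries the sorted cells were CD3+ CD4+ Tregs positive for a Foxp3 reporter (RFP) and for a reporter of the transcription factor RORγt (GFP), here called RORγt+. In the other 3 they were CD3+ CD4+ Foxp3 reporter-positive cells that lacked the RORγt reporter and stained for the chemokine receptor CCR6, here called RORγt-. Both sorts were read with both reporters, after erythrocyte lysis and magnetic enrichment of CD4+ T cells. No treatment is named in the labels, the design text calls the cells naive, and age, sex and the construction of the reporters are not stated there. Nothing in the labels says that each library came from its own animal, so the p-values below describe library-to-library spread, part of which may be technical.

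Cells enter division by passing from G1 into S phase. D and E cyclins with their kinases release E2F factors from the RB family, and E2F factors raise the genes that license replication origins, copy DNA and supply nucleotides. Later in the cycle the B-MYB and FOXM1 programme raises the cyclins, kinases and spindle proteins of G2 and mitosis. CDK inhibitors hold the cycle back. Among resting T cells in the spleen, Tregs are known for a comparatively large dividing share, and Ki-67, the product of Mki67, is a common stain for it. A bulk measurement cannot tell a larger number of dividing cells from more of these RNAs in each cell.

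Cell cycle promoters are known for short DNA words, and these were counted in the members by role. E2F words were searched as TTTCCCGC, TTTGGCGC, TTTCGCGC and TTTGCCGC, CHR words (the cell cycle genes homology region of G2 and mitotic genes) as TTTGAA and TTCGAA, and the CCAAT box as CCAAT, on both strands, from 250 bases before to 50 bases after each start site of the RefSeq table (GRCm38.p6). The table held 44 of the 53 members. An E2F word stood in 10 of 22 promoters of the replication, nucleotide and G1/S members, in 1 of 15 of the G2/M and spindle members, and in 4.66% of 10318 promoters of all measured genes. A CHR word stood in 5 of 22 and 11 of 15 of the same sets, and in 17.3% of all. Within the first set, an E2F word stood in 6 of 9 licensing and 3 of 6 DNA synthesis promoters. It stood in 0 of 4 nucleotide supply and 1 of 3 G1/S promoters. A CCAAT box was found in 33 of 44 members against 43.1% of all genes. These matches describe letters in a window and are not measured binding sites. The 120 bases before the start site are shown for some members as examples, with E2F, CHR and CCAAT words in capitals on either strand. Genes of the licensing helicase come first, then a nucleotide gene, then G2/M and spindle genes. In Mcm6, a pair of E2F words overlap, TTTGGCGC and the reverse complement of TTTCGCGC.
Mcm6 (chr1:128359706-128359825, minus strand): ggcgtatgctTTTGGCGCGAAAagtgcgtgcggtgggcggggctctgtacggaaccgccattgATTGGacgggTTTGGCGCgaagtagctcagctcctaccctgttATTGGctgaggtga
Mcm3 (chr1:20820313-20820432, minus strand): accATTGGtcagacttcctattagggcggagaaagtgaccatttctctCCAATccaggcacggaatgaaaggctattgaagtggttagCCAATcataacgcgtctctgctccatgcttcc
Rrm2 (chr12:24708134-24708253, plus strand): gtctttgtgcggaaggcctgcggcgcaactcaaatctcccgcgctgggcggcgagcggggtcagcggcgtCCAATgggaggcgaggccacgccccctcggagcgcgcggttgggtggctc
Cdk1 (chr10:69352913-69353032, minus strand): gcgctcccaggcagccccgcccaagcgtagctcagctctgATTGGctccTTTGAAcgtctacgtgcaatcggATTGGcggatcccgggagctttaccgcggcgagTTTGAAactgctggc
Cdc20 (chr4:118437344-118437463, minus strand): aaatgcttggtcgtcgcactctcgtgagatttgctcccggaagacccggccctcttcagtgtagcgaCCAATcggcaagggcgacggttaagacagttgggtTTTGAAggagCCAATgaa
Ube2c (chr2:164769809-164769928, plus strand): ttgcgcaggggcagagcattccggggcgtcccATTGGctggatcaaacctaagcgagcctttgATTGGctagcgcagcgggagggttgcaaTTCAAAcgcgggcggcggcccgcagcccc
Ccnb1 (chr13:100786487-100786606, minus strand): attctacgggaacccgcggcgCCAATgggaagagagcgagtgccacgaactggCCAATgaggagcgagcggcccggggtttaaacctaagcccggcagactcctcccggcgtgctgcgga
Kif11 (chr19:37376262-37376381, plus strand): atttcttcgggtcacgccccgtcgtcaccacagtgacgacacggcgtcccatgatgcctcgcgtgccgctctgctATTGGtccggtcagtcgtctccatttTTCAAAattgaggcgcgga
The stretch of Mcm6 holds E2F words that begin 110, 106 and 47 bases before the start site, and that of Cdk1 holds CHR words that begin 71 and 15 bases before it. The 1 E2F word among the G2/M members, in Cdk1, lies outside the stretch shown. The E2F words of Mcm3 lie after its start site and are not shown. The stretches of Mcm3, Rrm2 and Ccnb1 hold CCAAT boxes alone among the words searched. For Rrm2 and Ccnb1 no E2F or CHR word was found in the whole window.

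Foxp3 lay between 9789.7 and 12609 normalized counts over the 6 libraries. Ccr6, whose protein was used to sort the RORγt- cells, stood at 698, 815 and 899.9 against 112, 142 and 148, higher in RORγt+ Tregs (log2 fold change 2.58 ± 0.18, SE, limma adjusted p = 0.00554, and 0.0561 without RORγt+ replicate 2). CCR6 was a sort marker for 1 group alone, so its transcript does not check the labels of the other. Column totals lay between 11325902 and 11890770, and 1 read was worth about 0.821 to 1.24 normalized counts, so a library held roughly 9210000 to 14500000 reads. Of the members, 27 averaged under 100 normalized counts and 1 (Bub1) under 10, so their folds rest on few reads. RORγt+ replicate 3 stood apart from the other libraries. It was the shallowest, with 1247 genes at 0 against 438 to 638. The plot of fold changes by role shows each member's estimate with and without it. Of the members, 20 share over 10% of their 31-base sequence windows with other genes, mostly pseudogenes and neighbours, so their reads may be divided between copies.

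Of the 20 members of G2, mitosis and the spindle, 19 had higher mean log2 levels in RORγt+ Tregs, with a median log2 fold change of 0.82. The helicase ring genes Mcm2 to Mcm7 and the clamp gene Pcna overlapped between the sorts with all 6 libraries. No member passed the test. In limma's moderated test on log2(value + 1), fitted over all genes, 0 of 53 members had a Benjamini-Hochberg adjusted p under 0.05, beside 0.564% of all 15944 genes, and the smallest adjusted p was 0.0593. At an unadjusted p under 0.05, 13 members were higher in RORγt+ Tregs and 0 lower, beside 4.80% and 6.12% of all genes. The 3 RORγt+ values all lay above the 3 RORγt- values in 17 members and all below them in 1, beside 8.31% and 9.81% of all genes. The median log2 fold change, RORγt+ minus RORγt-, was 0.54 over the members and −0.011 over all genes, and 43 of the 53 had a value above 0. Of the 6 libraries, RORγt+ replicate 2 held the highest value of 28 members, replicate 1 of 7 and replicate 3 of 9. Without replicate 3 the test passed 2 members, Top2a and Ccna2, beside 1.09% of all genes, and the median was 0.53. In that fit 19 members were higher at an unadjusted p under 0.05, beside 9.03% of all genes, and 25 were higher without overlap, beside 18.5%. On the lower side 1 member (Mcm2) had an unadjusted p under 0.05, beside 8.72% of all genes, and 3 (Mcm2, Mcm6 and Fen1) were lower without overlap, beside 18.4%.

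**Figure D1:**
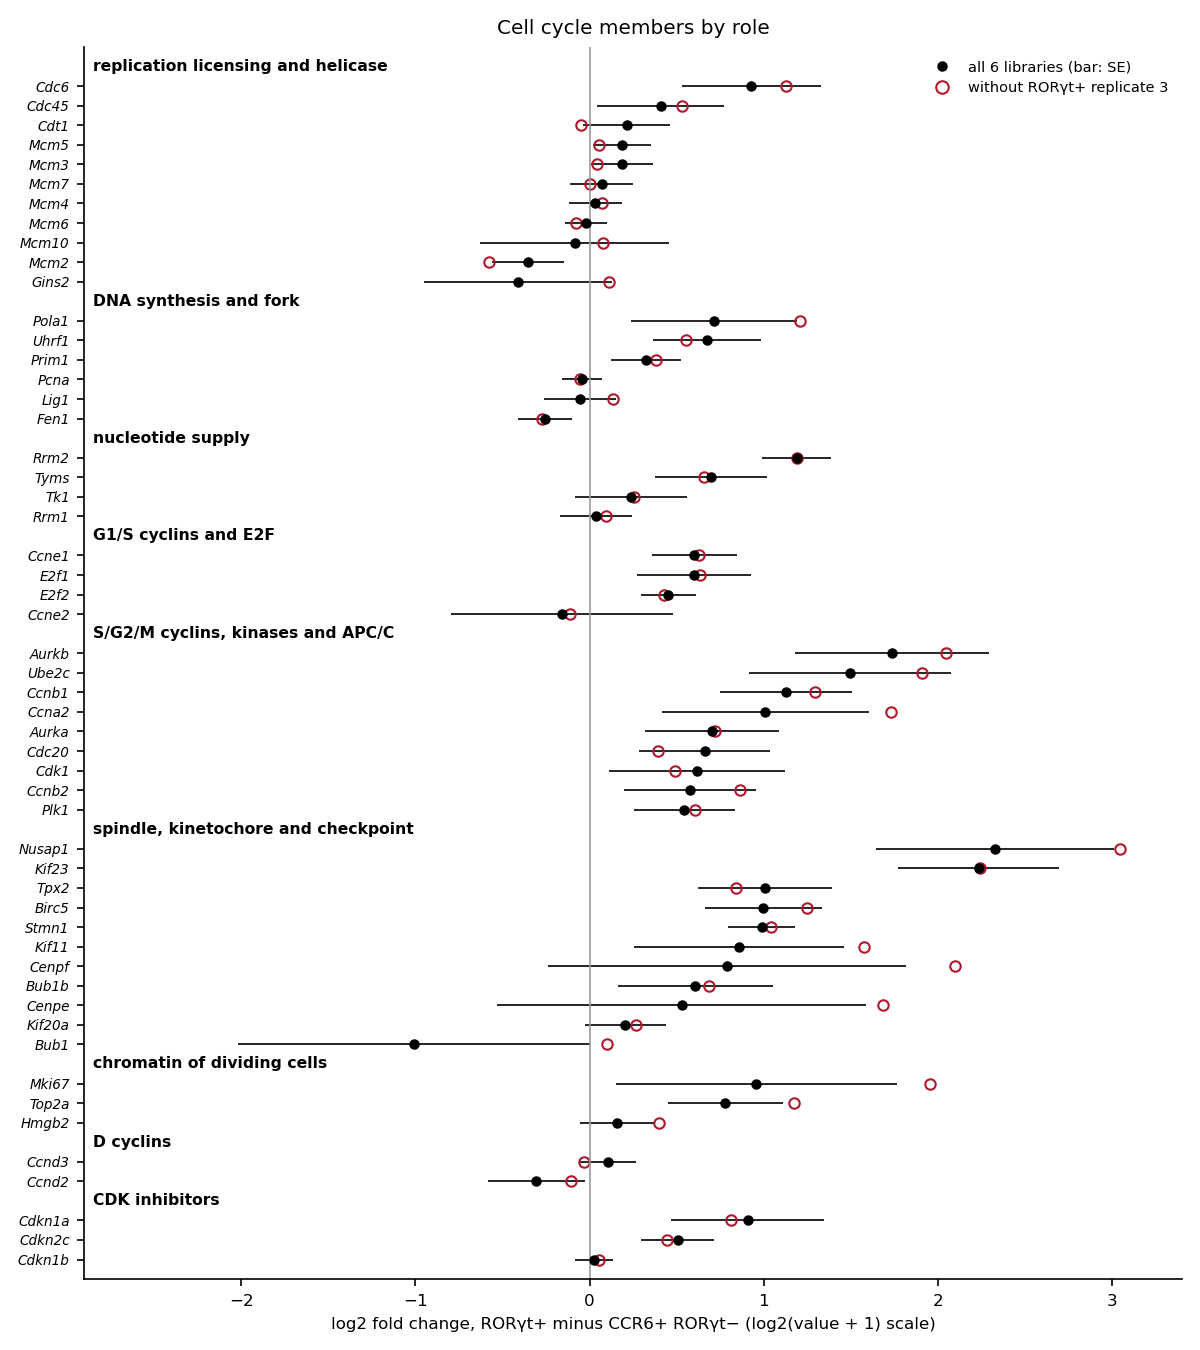
Log2 fold change of each member by role, RORγt+ minus CCR6+ RORγt- (x axis, log2(value + 1) scale, n = 3 libraries per group). Filled points with bars are limma estimates ± SE over all 6 libraries and open points are estimates without RORγt+ replicate 3. Filled points of the G2/M and spindle members lie mostly to the right of 0, with Bub1 at −1.01. Those of Mcm2 to Mcm7 lie between −0.35 and 0.19, and the open point of Mcm2 lies at −0.58.

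The licensing genes load and fire the replicative helicase. Mcm2 to Mcm7 form its ring, Cdc6 and Cdt1 load the ring onto origins, and Cdc45, Gins2 and Mcm10 help to start it. Among the 11 of them, Cdc6 alone had groups without overlap, beside 8.31% of all genes higher and 9.81% lower. An unadjusted p under 0.05 was found for 0 of them, beside 4.80% and 6.12% of all genes. Cdc6 stood at 24.2, 33.2 and 18.3 normalized counts in RORγt+ replicates 1 to 3 and 14.4, 14.3 and 9.26 in RORγt- replicates 1 to 3. Every RORγt+ value was above every RORγt- value, with a log2 fold change of 0.93 ± 0.40 (SE, adjusted p = 0.462), and 10.1% of its windows occur in other genes. The ring subunits were abundant. Per kilobase of the longest annotated transcript, Mcm2 to Mcm7 averaged 182 to 378 normalized counts, highest for Mcm6, Mcm4 and Mcm2. Mcm6 stood at 1575, 1564 and 1764 normalized counts in RORγt+ replicates 1 to 3 and 1788, 1593 and 1599 in RORγt- replicates 1 to 3. Mcm4 stood at 1298, 1307 and 1202 against 1104, 1503 and 1147, and Mcm2 at 629, 738 and 1089 against 994, 1010.2 and 1045. In all 3 genes the groups overlapped, with adjusted p of 0.976, 0.972 and 0.63. In Mcm2, RORγt+ replicates 1 and 2 lay below all RORγt- libraries and replicate 3 above them, and the log2 fold change was −0.35 ± 0.21 (SE) with replicate 3 and −0.58 without it (adjusted p = 0.0769). The licensing loader Cdt1 and the starters Cdc45, Gins2 and Mcm10 also overlapped between groups (adjusted p of 0.841, 0.774, 0.863 and 0.979), and 70.5% of the Gins2 windows occur in other genes. Without RORγt+ replicate 3 the log2 fold change went from 0.21 to −0.051 for Cdt1 and from −0.41 to 0.11 for Gins2. The role's median log2 fold change was 0.070, and 0.054 without RORγt+ replicate 3.

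Of the 6 genes that copy DNA behind the helicase, 3 had a log2 fold change above 0 and 3 below it. Pcna, the sliding clamp, was the most abundant of the replication members per kilobase (1011 normalized counts), and stood at 1519.5, 1474 and 1539 normalized counts in RORγt+ replicates 1 to 3 and 1664, 1460.4 and 1554 in RORγt- replicates 1 to 3. The groups overlapped (adjusted p = 0.949). The flap nuclease Fen1 stood at 227, 234 and 238 against 274, 303 and 260.4, the 1 member with every RORγt+ value below every RORγt- value (log2 fold change −0.26 ± 0.15, SE, adjusted p = 0.637). Of its windows 82.2% occur in other genes, so its values are uncertain. Prim1, the primase that starts each new strand, stood at 120.1, 135 and 112 against 89.1, 98.0 and 106, higher in every RORγt+ library (log2 fold change 0.32 ± 0.20, SE, adjusted p = 0.651). Its partner Pola1, a subunit of the priming polymerase, stood at 266, 343 and 108 against 84.1, 135 and 194. RORγt+ replicates 1 and 2 were above all other libraries and replicate 3 was not, and the log2 fold change was 0.72 ± 0.48 (SE, adjusted p = 0.675) with replicate 3 and 1.21 (adjusted p = 0.174) without it. Lig1, which seals nicks (303, 376 and 227 against 311, 306 and 304), and Uhrf1, which carries DNA methylation through replication (152, 166 and 205 against 101, 165 and 75.2), overlapped between groups. Of the Uhrf1 windows 29.4% are shared.

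Ribonucleotide reductase makes the deoxynucleotides of S phase, and its regulated subunit Rrm2 (chromosome 12, 24708241 to 24714146, GRCm38) had the smallest adjusted p of all members. Rrm2 stood at 161, 187 and 173 normalized counts in RORγt+ replicates 1 to 3 and 68.8, 83.2 and 75.1 in RORγt- replicates 1 to 3, and the groups did not overlap. The log2 fold change of Rrm2 was 1.19 ± 0.20 (SE) at an adjusted p of 0.0593. Leaving out RORγt+ replicate 3 gave 1.19 at an adjusted p of 0.0553. Rrm2 passed when genes under a mean of 10 were left out (adjusted p = 0.0451), beside 0.806% of the genes kept. It also passed with library weights (adjusted p = 0.0188), where 4 members and 2.25% of all genes were called, and after a correction for transcript length and GC content (0.0328). Its windows are shared to 16.5% with other genes. Rrm1, the constant subunit, stood at 482, 678 and 509.9 against 475, 479 and 675 (adjusted p = 0.976); the difference between the subunits was not tested. Tyms, which makes thymidylate (149.97, 223 and 199 against 135, 73.5 and 155, adjusted p = 0.493), and Tk1, the thymidine kinase of S phase (65.9, 92.7 and 75.9 against 45.6, 93.6 and 65.7, adjusted p = 0.869), overlapped between groups.

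Of the 4 G1/S regulators, E2f1, E2f2 and Ccne1 were higher in every RORγt+ library, beside 8.31% of all genes, and none passed the test. E2f2, an activating E2F factor, was the most abundant per kilobase (93.3), at 435, 577 and 526 normalized counts in RORγt+ replicates 1 to 3 and 374, 386 and 356 in RORγt- replicates 1 to 3. The log2 fold change of E2f2 was 0.45 ± 0.16 (SE) at an adjusted p of 0.357. E2f1 stood at 40.5, 32.1 and 33.5 against 27.4, 17.2 and 25.3 (log2 fold change 0.60 ± 0.33, adjusted p = 0.594). Ccne1, the cyclin that drives entry into S phase, stood at 68.3, 63.2 and 62.0 against 43.9, 38.1 and 44.8 (log2 fold change 0.60 ± 0.24, adjusted p = 0.434). Its paralogue Ccne2 was scarce, at 8.11, 20.4 and 11.8 against 11.9, 33.1 and 6.79, and the groups overlapped (adjusted p = 0.97).

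All 9 cyclins, kinases and ubiquitin ligase factors of S phase, G2 and mitosis had log2 fold changes above 0, from 0.54 (Plk1) to 1.74 (Aurkb), with a median of 0.70 and no member past the threshold. They were scarce, at 10.2 to 28.5 normalized counts per kilobase. Aurkb, the kinase that corrects chromosome attachment, stood at 70.4, 50.8 and 30.99 normalized counts in RORγt+ replicates 1 to 3 and 5.95, 22.8 and 18.3 in RORγt- replicates 1 to 3. Every RORγt+ library was above every RORγt- library (log2 fold change 1.74 ± 0.56, SE, adjusted p = 0.314). Ube2c, the ubiquitin-conjugating enzyme of the anaphase-promoting complex, stood at 44.7, 46.8 and 18.7 against 5.11, 17.2 and 16.4 (log2 fold change 1.49 ± 0.58, adjusted p = 0.412), and 25.1% of its windows are shared, most with the neighbouring Tnnc2. Ccnb1, the mitotic cyclin, stood at 53.3, 75.1 and 44.7 against 19.3, 21.2 and 39.2 (log2 fold change 1.13 ± 0.38, adjusted p = 0.342), with 46.9% of its windows shared, most with Ccnb1-ps. The mitotic kinase Plk1 (47.0, 57.9 and 45.9 against 30.8, 30.0 and 42.5) also did not overlap between groups, by a small margin (adjusted p = 0.583). Its log2 fold change was 0.54 ± 0.29 (SE). Ccna2, the cyclin of S and G2, stood at 103, 104 and 22.2 normalized counts in RORγt+ replicates 1 to 3 and 26.2, 37.4 and 28.8 in RORγt- replicates 1 to 3. RORγt+ replicates 1 and 2 were about as high as each other and replicate 3 lay below every RORγt- library. The log2 fold change of Ccna2 was 1.01 ± 0.60 (SE, adjusted p = 0.632) with replicate 3 and 1.73 (adjusted p = 0.0466) without it. Of its windows 16.5% are shared, most with the neighbouring Exosc9. Cdk1, the partner kinase of cyclins A and B (24.5, 83.3 and 59.2 against 36.9, 42.3 and 21.0), Ccnb2 (58.2, 65.7 and 33.6 against 25.6, 47.2 and 31.2), Cdc20, an activator of the anaphase-promoting complex (34.1, 66.3 and 83.9 against 33.1, 35.8 and 39.5), and the spindle kinase Aurka (23.4, 40.9 and 29.9 against 14.3, 25.4 and 17.2) overlapped between groups.

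The spindle and kinetochore members held the largest folds. Kif23 (chromosome 9, 61915905 to 61946774), a kinesin of the central spindle needed for cytokinesis, stood at 89.7, 201 and 133 normalized counts in RORγt+ replicates 1 to 3 and 17.9, 23.0 and 50.8 in RORγt- replicates 1 to 3. All RORγt+ libraries were above all RORγt- libraries, with a log2 fold change of 2.23 ± 0.46 (SE, adjusted p = 0.117). Nusap1 (chromosome 2, 119618298 to 119651244), a microtubule-bundling protein, stood at 151, 71.2 and 22.5 against 7.29, 16.4 and 13.1 (log2 fold change 2.33 ± 0.68, adjusted p = 0.268). Its RORγt+ values spread widely, and replicate 3 was the lowest of them while still above the RORγt- values. Without it the log2 fold change of Nusap1 was 3.05 (adjusted p = 0.0529). Stmn1 (chromosome 4, 134468320 to 134473843), which destabilises microtubules, stood at 249.6, 312 and 250.02 normalized counts in RORγt+ replicates 1 to 3 and 121, 157 and 131 in RORγt- replicates 1 to 3. The groups did not overlap (log2 fold change 0.99 ± 0.19, SE, adjusted p = 0.101), and 42.6% of its windows occur in other genes, most in Gm11223. Birc5, or survivin, the partner of Aurkb in the chromosomal passenger complex, stood at 62.9, 68.1 and 38.3 against 22.6, 26.7 and 32.5 (log2 fold change 0.997 ± 0.34, adjusted p = 0.342). Kif20a, a kinesin of cytokinesis, stood at 84.2, 68.5 and 66.5 against 60.1, 64.4 and 64.2, just without overlap (log2 fold change 0.21 ± 0.23, adjusted p = 0.833), and 32.6% of its windows are shared, most with Cdc23. Tpx2, which activates Aurka on the spindle, stood at 44.6, 89.0 and 89.3 against 27.8, 49.6 and 30.3 with 1 RORγt+ library inside the RORγt- range (log2 fold change 1.01 ± 0.39, adjusted p = 0.406). The motor Kif11 stood at 158, 214 and 40.6 against 42.2, 70.2 and 77.0. RORγt+ replicate 3 lay below all RORγt- libraries, as it did for the kinetochore proteins Cenpe and Cenpf. Cenpe stood at 97.0, 198 and 11.6 against 19.5, 33.3 and 115, and Cenpf at 77.9, 151 and 6.21 against 18.8, 28.3 and 28.0. The checkpoint kinase Bub1 was near the depth limit, at 5.43, 14.7 and 0 against 14.3, 8.03 and 4.94, and its relative Bub1b stood at 53.8, 113 and 66.3 against 40.6, 84.8 and 32.2; both overlapped. Without RORγt+ replicate 3 the log2 fold change went from 0.86 to 1.57 for Kif11 (adjusted p = 0.0851), from 0.53 to 1.69 for Cenpe and from 0.79 to 2.10 for Cenpf. The sign for Cenpe, Cenpf and Bub1 changed when single libraries were left out: without RORγt+ replicate 2 the log2 fold change was −0.30 for Cenpe and −0.10 for Cenpf, without RORγt- replicate 1 it was −0.012 for Cenpe, and without RORγt+ replicate 3 it was 0.10 for Bub1. Without RORγt+ replicate 3 the role's median log2 fold change moved from 0.86 to 1.25, and no member of the role passed.

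**Figure D2:**
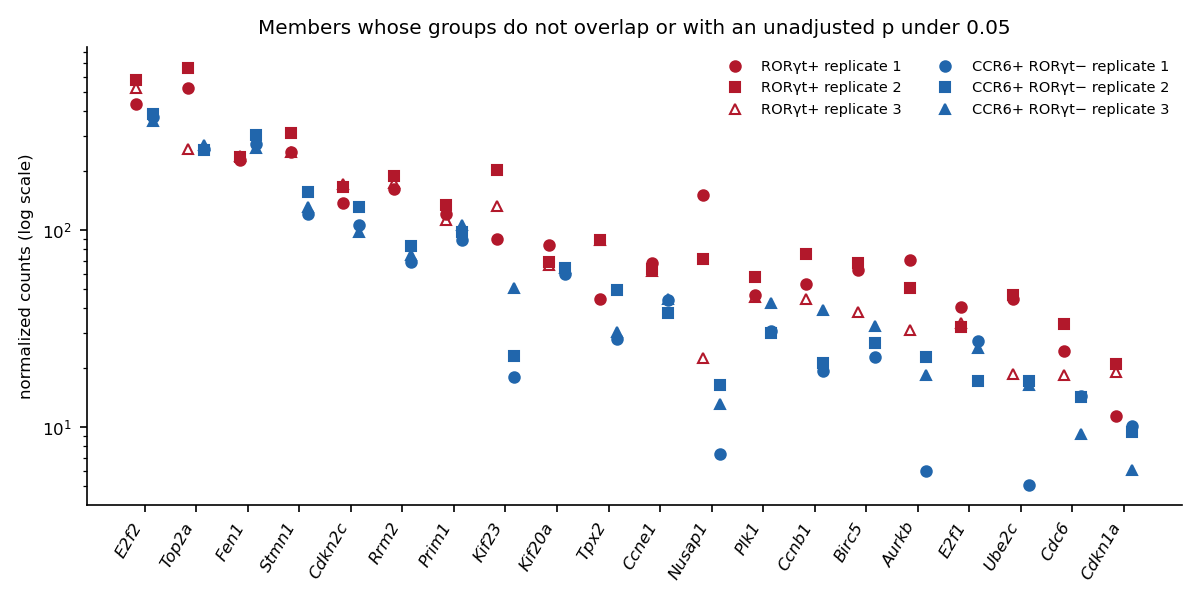
Normalized counts (y axis, log scale) in each library for the 20 members whose groups did not overlap or whose unadjusted p was under 0.05, ordered by mean level. Red symbols are RORγt+ and blue symbols RORγt- libraries, each point being 1 library; Rrm2, Stmn1 and Kif23 show separated groups, and the open triangle of RORγt+ replicate 3 lies with the RORγt- libraries in Top2a and near them in Nusap1 and Ube2c.

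Mki67, Top2a and Hmgb2 serve the chromatin of dividing cells. Mki67, which encodes Ki-67, stood at 1481, 1918 and 212 normalized counts in RORγt+ replicates 1 to 3 and 251, 476 and 688 in RORγt- replicates 1 to 3. RORγt+ replicates 1 and 2 were above all RORγt- libraries and replicate 3 was the lowest library of all. The log2 fold change of Mki67 was 0.96 ± 0.81 (SE) at an adjusted p of 0.756 with replicate 3 and 1.95 (adjusted p = 0.0878) without it. Top2a, the topoisomerase that untangles chromosomes, stood at 525, 665 and 259 against 259, 254 and 271, again with replicate 3 inside the range of the RORγt- libraries. The log2 fold change of Top2a was 0.78 ± 0.33 (SE) at an adjusted p of 0.456 with replicate 3 and 1.17 (adjusted p = 0.0259) without it. Hmgb2, a DNA-bending protein, stood at 1864, 2142 and 1209.8 against 1465, 1582 and 1509 (adjusted p = 0.87), the most abundant of the 3 per kilobase (619.7), and 24.9% of its windows are shared. Its log2 fold change was 0.16 with RORγt+ replicate 3 and 0.40 without it (adjusted p = 0.13).

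The D cyclins and CDK inhibitors govern G1. Ccnd2, a D cyclin of lymphocytes, was the most abundant member per kilobase (1215 normalized counts) and stood at 8237, 7129 and 5056 normalized counts in RORγt+ replicates 1 to 3 and 11829.7, 5944 and 7966 in RORγt- replicates 1 to 3. The groups overlapped widely, as they did for Ccnd3 (1654, 1485 and 2073 against 1668, 1409 and 1747), with adjusted p of 0.78 and 0.896. Cdkn1b, or p27, which restrains CDK2 in resting T cells, stood at 2612, 2857 and 2575 against 2706, 2484 and 2709 (adjusted p = 0.971). Its values varied little in either group. Cdkn2c, or p18, an inhibitor of CDK4 and CDK6, stood at 137, 165 and 172 against 105, 130.5 and 97.8, without overlap (log2 fold change 0.51 ± 0.21, SE, adjusted p = 0.446). Cdkn1a, or p21, stood at 11.3, 21.0 and 19.1 against 10.1, 9.49 and 6.08, also without overlap but from low values (log2 fold change 0.91 ± 0.44, adjusted p = 0.534), and 11.3% of its windows are shared.

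Levels were also summed over the members of each role, as a description. The 9 cyclins and kinases of S phase, G2 and mitosis summed to 459, 591 and 369 in the RORγt+ libraries and 197, 279 and 254 in the RORγt- libraries. The 11 spindle genes summed to 1074, 1501 and 724 in the RORγt+ libraries and 392, 561 and 579 in the RORγt- libraries. In both roles the groups did not overlap, and RORγt+ replicate 3 was the lowest of its group. The 4 G1/S regulators, whose sum is mostly E2f2, reached 552, 692 and 633 in the RORγt+ libraries and 457, 475 and 433 in the RORγt- libraries, also apart. The 11 licensing genes summed to 5904 to 7218 in RORγt+ and 5960.0 to 6538 in RORγt- libraries, and the 6 genes of DNA synthesis to 2429 to 2726 in RORγt+ and 2467 to 2523 in RORγt- libraries, so both overlapped. The 3 chromatin genes summed to 3869, 4725 and 1681 in the RORγt+ libraries and 1974, 2312 and 2468 in the RORγt- libraries, where RORγt+ replicate 3 lay below every RORγt- library. Sums for nucleotide supply, D cyclins and CDK inhibitors also overlapped between groups. How often sums over other sets of genes would lie apart was not computed, and the difference between the roles was not tested.

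**Figure D3:**
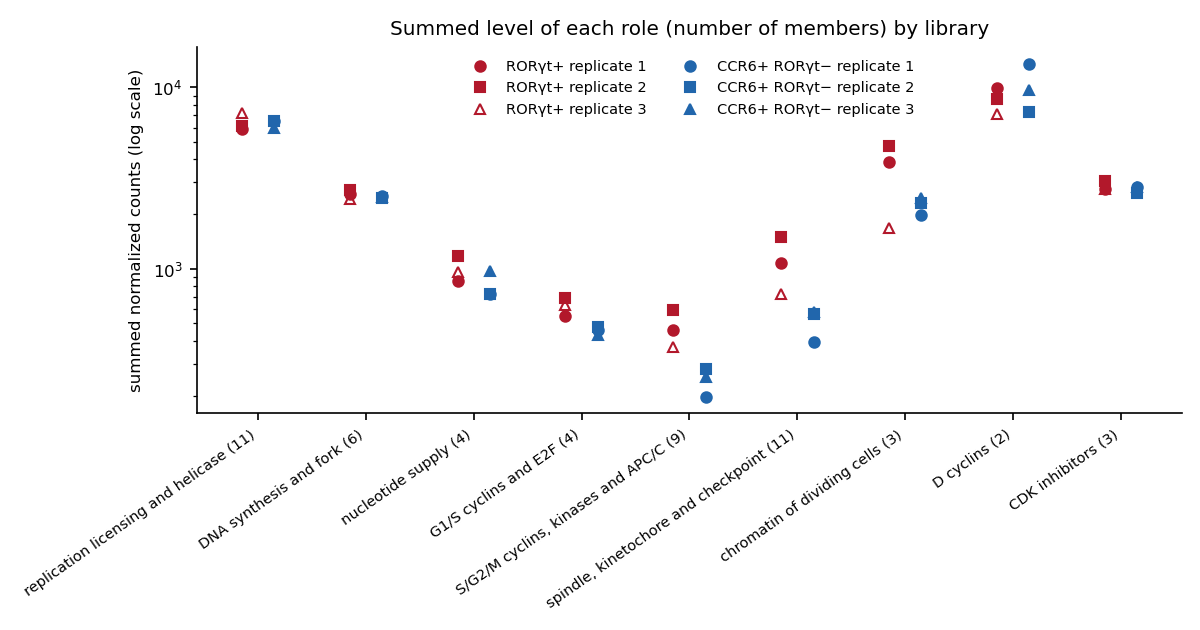
Summed normalized counts of each role (y axis, log scale) in each library, with the number of members in parentheses. Red symbols are RORγt+ and blue symbols RORγt- libraries; the groups are apart for the G1/S regulators, the S/G2/M kinases and the spindle genes, and overlap for the other 6 roles, with RORγt+ replicate 3 the lowest library for the chromatin genes.

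RORγt+ replicate 3 lay below both other RORγt+ libraries in 27 of 53 members, above both in 13 and between them in 13. Its deviation from the mean of replicates 1 and 2, in log2(value + 1), was −3.93 for Cenpf (11.1 kb), −3.47 for Cenpe (7.91 kb) and −2.99 for Mki67 (10.1 kb), and −3.33 for Bub1 (3.42 kb). Members of similar length differed in sign. The deviation was 0.68 for Mcm2 (3.37 kb), close to Bub1 in length, and 0.79 for Cdt1 against −1.25 for Ube2c, both of 2.19 kb. These pairs also differed in GC content, 55.5% for Mcm2 against 41.0% for Bub1 and 58.8% for Cdt1 against 55.5% for Ube2c. Bub1 stood at 0 in replicate 3. The deviation was 0.80 for Cdc20 (1.79 kb, 55.6% GC) and −2.17 for Ccna2 (2.96 kb, 46.1% GC). Over all genes with a mean of at least 10, the median deviation was 0.22 for transcripts of 1 to 2 kb (2536 genes) and −0.72 for those over 8 kb (629 genes). Across the 53 members, which share the libraries, the deviation had a Spearman correlation of −0.34 with transcript length and 0.55 with GC content, and across 12725 genes of −0.28 and 0.52. Such trends were not confined to replicate 3. Across the 12725 genes the correlation with GC content was −0.48 and −0.36 for RORγt+ replicates 1 and 2. It was 0.39, 0.021 and −0.41 for RORγt- replicates 1 to 3. With length it was 0.17 and 0.26, and −0.13, −0.061 and 0.15. Deviations within a group depend on each other. After each library was corrected for length and GC content, the log2 fold change of Mki67 was 1.06 (adjusted p = 0.536) and that of Cenpf 0.88 (adjusted p = 0.694), and Rrm2 was the 1 member that passed, beside 1.10% of all genes. The part of these differences in the members' fold changes was not tested beyond this correction.

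**Figure D4:**
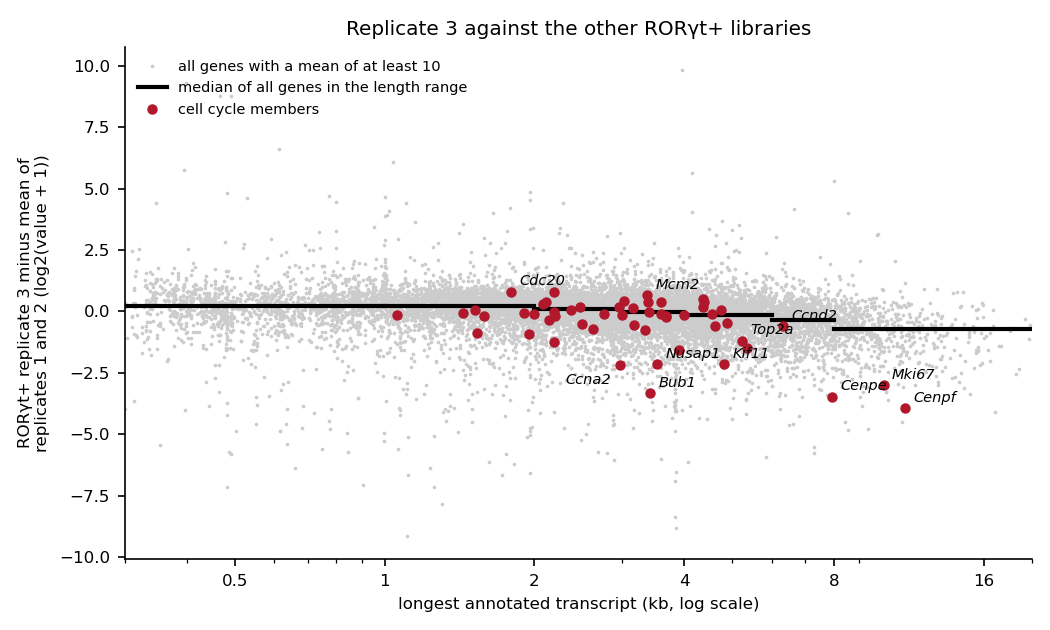
Difference of RORγt+ replicate 3 from the mean of RORγt+ replicates 1 and 2 in log2(value + 1) (y axis) against the length of the longest annotated transcript in kilobases (x axis, log scale). Grey points are genes with a mean of at least 10, black lines their medians per length range, from 0.24 under 1 kb to −0.72 over 8 kb, and red points are the members, of which Mki67, Cenpe and Cenpf lie far below the medians.

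Other genes of the cycle were read in 10 lists from textbook knowledge, 182 genes in all, of which 1 passed the test, a share near the 0.564% of all genes called. It was Kif22, a chromokinesin that moves chromosome arms, at 85.6, 94.5 and 79.9 normalized counts in RORγt+ replicates 1 to 3 and 20.1, 20.4 and 17.9 in RORγt- replicates 1 to 3. Kif22 was higher in RORγt+ Tregs with a log2 fold change of 2.10 ± 0.26 (SE) at an adjusted p of 0.0219. Kif22 missed the threshold whenever any library but RORγt+ replicate 3 was dropped (adjusted p between 0.102 and 0.133). In its list of kinetochore, spindle and cytokinesis genes, 1 of 31 rose, 0 fell and 30 did not pass, 10 were higher at an unadjusted p under 0.05 (beside 4.80% of all genes), and the median log2 fold change was 0.80. The next were Prc1, a partner of Kif23 in the central spindle (178, 341 and 105 against 50.3, 52.3 and 42.5, adjusted p = 0.128, and 0.0339 without RORγt+ replicate 3), and Racgap1, which binds Kif23 in the centralspindlin complex (349, 445 and 497 against 199, 248 and 137, adjusted p = 0.135). Racgap1 and Prc1 were higher in every RORγt+ library, and 30.9% of the Prc1 windows are shared, most with Rccd1. Of 22 mitotic regulators none passed, 21 had log2 fold changes above 0, and the median was 0.41. Among them Cdc25b, a phosphatase that activates CDK1, stood at 1543, 1567 and 1106 against 605, 779 and 761 (adjusted p = 0.0914, and 0.0248 without RORγt+ replicate 3).

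The other lists were described by their medians in the same way. The median log2 fold change was 0.17 over 20 genes of origin recognition and firing, 0.044 over 26 of the replicative polymerases, clamp loader and single-strand binding, 0.090 over 12 of nucleotide supply, 0.11 over 23 of G1 control and 0.16 over 16 of condensin and cohesin, with none past the threshold. Without RORγt+ replicate 3 the median of condensin and cohesin was 0.64, with 16 of 16 genes above 0 against 11 with it, and that of origin recognition and firing was 0.34. In that fit the mitotic regulators had a median of 0.49 and the kinetochore, spindle and cytokinesis genes of 1.06. In the polymerase list 4 genes were higher at an unadjusted p under 0.05 (beside 4.80% of all genes), among them Pole, the leading-strand polymerase (133, 236 and 261 against 105, 108 and 103, adjusted p = 0.284), and the histone chaperone subunit Chaf1b (216, 209.9 and 161 against 136, 121 and 111, adjusted p = 0.301). E2f8, an E2F factor that represses E2F targets late in S phase, led the list of G1 control at 44.4, 25.1 and 40.5 normalized counts in RORγt+ replicates 1 to 3 and 6.65, 7.83 and 7.75 in RORγt- replicates 1 to 3. All RORγt+ values lay above all RORγt- values, with a log2 fold change of 2.13 ± 0.38 (SE, adjusted p = 0.0771), and 11.9% of its windows are shared. Of 5 further CDK inhibitors, Cdkn1c, or p57 (48.4, 55.5 and 31.5 against 21.9, 20.8 and 19.3), and Cdkn2d, or p19 (306, 315 and 473 against 229.6, 233 and 233), were higher in every RORγt+ library (adjusted p of 0.308 and 0.327). Over all genes this held for 8.31%. Of 16 p53 targets and 12 quiescence genes of T cells none passed, with medians of −0.0064 and −0.062 (−0.087 and −0.13 without RORγt+ replicate 3). Of the 12 quiescence genes, 8 had a log2 fold change below 0 and 4 above it, and of the 16 p53 targets 8 and 8. Klf2, a factor that keeps T cells quiescent, stood at 3692, 3295 and 5331 against 2708, 2737 and 2693 (adjusted p = 0.32), and Sesn1, a sestrin among the p53 targets, at 2352, 2111 and 3162 against 1617, 1581 and 1620.4 (adjusted p = 0.212), both higher in every RORγt+ library. Without overlap, 1 quiescence gene was higher and 2 were lower. Among the p53 targets 1 was higher and 1 lower, beside 8.31% and 9.81% of all genes.

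**Figure D5:**
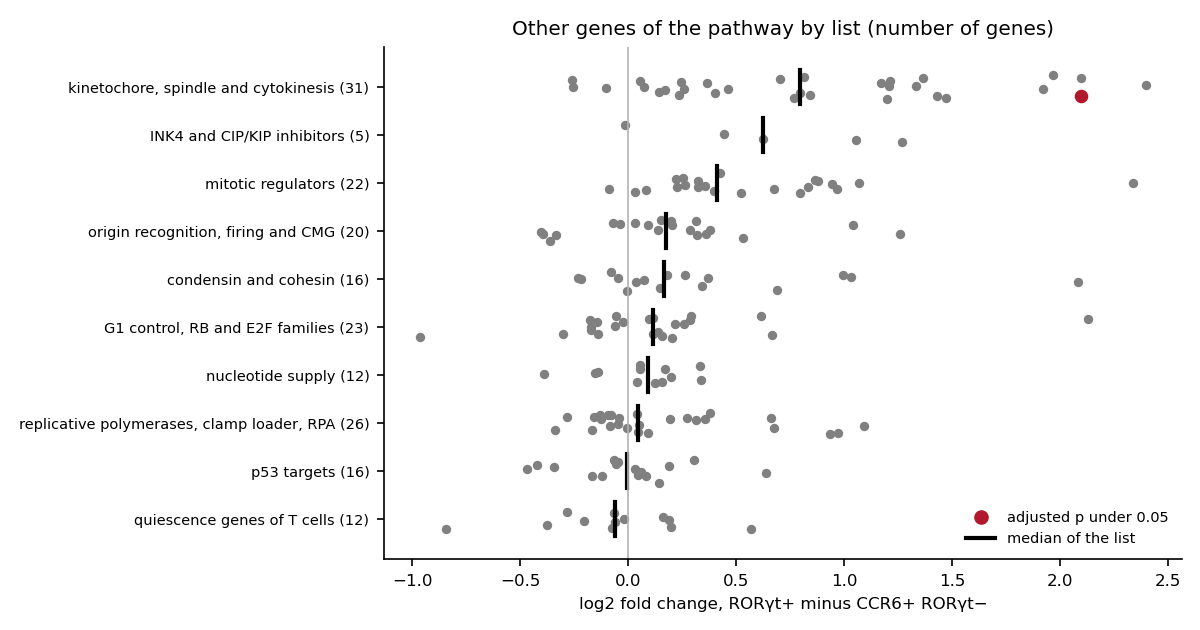
Log2 fold change, RORγt+ minus RORγt-, of each gene (x axis, points) in 10 lists of other cell cycle genes, with the number of genes in parentheses and the list median as a black bar. Kif22 is the 1 point past the adjusted p threshold (red); the medians run from −0.062 for quiescence genes to 0.80 for kinetochore, spindle and cytokinesis genes.

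Markers of other cell types were read beside the members. B cell markers (8 of 8 measured, 6 with a log2 fold change above 0, none past the test) summed to 7236 to 10798 in RORγt+ and 8311 to 10444 in RORγt- libraries, mostly Ighm and Cd74. Pax5, a B cell factor named after its values were seen, stood at 100.3, 118 and 8.37 against 8.07, 43.4 and 10.6, high in the RORγt+ replicates that were high in Mki67. Markers of germinal centre B and plasma cells (7 of 9) summed to 902 to 1401 in RORγt+ and 755 to 1002 in RORγt- libraries, mostly Xbp1 and S1pr2. Of these, Mzb1 stood at 3.18, 6.94 and 0 against 0, 0 and 0 and Mef2b at 9.12, 6.58 and 1.28 against 6.28, 8.46 and 5.85, both chosen after their values were seen. Erythroid markers (6 of 12) summed to 187 to 869 in RORγt+ and 53.5 to 4282 in RORγt- libraries, the highest in RORγt- replicate 2. Markers of γδ and innate T cells (4 of 6) summed to 129 to 132 in RORγt+ and 54.5 to 78.1 in RORγt- libraries, without overlap between groups and mostly Trdc. Sums were 49.7 to 115 in RORγt+ and 21.4 to 44.7 in RORγt- libraries for myeloid, 13.0 to 41.5 in RORγt+ and 39.3 to 47.5 in RORγt- libraries for dendritic cell and 394 to 620.0 in RORγt+ and 365 to 473 in RORγt- libraries for CD8 T and NK cell markers, with 5 of 13, 4 of 7 and 8 of 8 measured. The myeloid sums did not overlap between groups either, and how often other sums would lie apart was not computed. No marker in these lists passed the test, and their part in the levels of the mitotic genes was not tested.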

How the data were processed

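The deposited table gives 1 signal value per gene and library, which are normalized counts to 2 decimals that the authors scaled between libraries, not raw counts. Per the submitters' processing notes, the tools were Salmon 1.2.0 and DESeq2 and the build GRCm38, with no role or order given. No source used here gives the annotation or filters. Among low values, 52.2% to 68.3% matched a whole read count to 0.1, too few to recover reads, and count tests were not used.

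Values were analysed as log2(value + 1), without a filter, with limma 3.58.1 in R 4.3.3 (group model, empirical Bayes with a trend, 4 residual and 3.43 prior degrees of freedom, two-sided, Benjamini-Hochberg over 15944 genes, threshold 0.05). Fold changes understate those of low genes. The members and lists were chosen with earlier results of these data known. All members could be named; values per library went to those without overlap or with an unadjusted p under 0.05, the 3 highest per kilobase of a role, D cyclins and CDK inhibitors, and at most 3 genes of another list were named, by p. Some results of this rule are not reported here, and values of some other members and of Pax5 were added after the values were seen. Positions and transcript lengths came from GENCODE M21 (GRCm38), which held 15851 of the gene identifiers, and promoters from RefSeq. Alternatives were other pseudocounts, scalings and filters, no trend, library weights, a replicate block, each library left out and a correction for length and GC content.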

Additional observations from a re-analysis of the deposited data

How the results depend on the processing

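One alternative, the correction for length and GC content, was added after seeing the data. Against 90 genes called, 358 passed with library weights (RORγt+ replicate 3 had a weight of 0.199), 174 with the correction, 1 with the replicate block, and 4 to 174 without 1 library. Against 0 members called, 1 passed among genes with a mean of at least 10 (Rrm2), 4 with library weights (Rrm2, Top2a, Nusap1 and Stmn1), 1 with the correction, 0 with the replicate block and 0 to 2 without 1 library. Of other pathway genes, 6 passed with library weights, 2 without a trend, 0 with the replicate block (Kif22 adjusted p = 0.187) and 0 to 3 without 1 library. The members' median was 0.37 to 0.53 and the count without overlap 19 to 28 without 1 library. Dropping a library makes groups without overlap commoner over all genes. Without RORγt+ replicate 3 the shares were 18.5% higher and 18.4% lower, against 8.31% and 9.81% with all 6 libraries. The cause of the changes between settings was not tested. Of the 53 members, 36 kept the direction of their log2 fold change in all alternatives run and 17 did not. The 31 other genes followed, Ccr6 and pathway genes named for their small p, all kept it. They were picked by p in these same data, so a stable direction was likely from the start. Leaving out 1 library reversed Mcm6 (−0.079 to 0.032), Ccne2 (−0.63 to 0.43), Rrm1 (−0.11 to 0.20), Cenpe (−0.30 to 1.69), Cenpf (−0.10 to 2.10), Hmgb2 (−0.015 to 0.40), Cdkn1b (−0.021 to 0.054), Cdt1 (−0.051 to 0.42), Mcm10 (−0.61 to 0.19), Gins2 (−0.91 to 0.11), Lig1 (−0.23 to 0.13), Bub1 (−1.88 to 0.10), Ccnd3 (−0.031 to 0.21), Mcm4 (−0.050 to 0.17), Pcna (−0.090 to 0.0039), Tk1 (−0.019 to 0.49) and Mcm7 (−0.057 to 0.24), given as the range over the fits without 1 library. Reversed values were −0.0043 for Cdt1 and 0.047 for Mcm10 and 0.11 for Lig1 with library weights, 0.0064 for Mcm6 with equal library totals and 0.019 for Mcm6 with the correction. Deviations from the group mean correlated between libraries of the same number at −0.17, −0.045 and −0.28. The labels do not say whether the numbers pair the libraries. These correlations cannot settle it, because deviations from a mean of 3 libraries depend on each other. The main fit treated the libraries as unpaired. The median of 0.37 was found without RORγt+ replicate 2. Without RORγt+ replicate 3, 174 genes and 2 members passed. In that fit 28 members did not overlap, beside 18.5% of all genes higher and 18.4% lower. Depth limits members under 100 normalized counts, such as Bub1.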
